A study of Mus musculus with 2 samples.

Results

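The 10 genes described here, *Myh11*, *Acta2*, *Tagln*, *Cnn1*, *Lmod1*, *Smtn*, *Myl9*, *Mylk*, *Tpm2* and *Des*, encode the contractile apparatus of vascular smooth muscle cells (VSMCs). They were taken by name, as the rows of both deposited count matrices that carry these symbols. Each symbol matched 1 row, so that 10 of 33696 genes were followed. The rule that picks the rows uses the names of the genes alone.

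Smooth muscle shortens when thick filaments of myosin pull on thin filaments of actin, once a calcium-dependent kinase has phosphorylated the regulatory light chain of myosin. The thin filaments carry tropomyosin and the actin-binding proteins calponin, transgelin, smoothelin and leiomodin, and desmin filaments tie the apparatus to the rest of the cell. In the aorta these genes are the standard marks of the contractile state of the media, and many of them are transcribed under serum response factor and its partner myocardin, which act through CArG boxes.

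Abdominal aortas were taken on day 28 from mice given normal saline (Control) and from mice given angiotensin II with high salt (AngII+HS). AngII is a hormone that constricts vessels and raises blood pressure. It was infused from a pump under the skin while salt was added to the drinking water, which is the study's model of abdominal aortic aneurysm. The study describes male C57BL/6J mice of 5 months of age for this model, and no genetic change is named for either group. The series description gives 5 mice pooled for each library, whereas the protocol speaks of 1 Control mouse and 2 treated mice. Each condition gave 1 library. The spread between mice is therefore unknown, the values are given without tests, and differences between the libraries have no replicate behind them. All intervals below are 95% intervals for counting error only.

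Every captured RNA molecule carried a unique molecular identifier (UMI) and was counted once from its 3′ end, so levels are not divided by transcript length. The libraries held 86618995 UMIs (Control) and 117146856 UMIs (AngII+HS), and 10269 and 19734 cells remained after filtering and doublet removal. Each of the barcode lists has the length of the other library's matrix, and the matrices were taken as recorded. A swap of the matrices themselves would turn every direction given here. In the matrices as recorded, neutrophils were 0.964% (Control) and 23.6% (AngII+HS) of the cells and macrophages 5.10% and 23.2%. The lists share 67 barcodes. Clusters were formed without the 10 genes and without 46 related genes, and were named from marker lists that hold none of them. This gave 5138 Control and 686 AngII+HS cells called VSMC-like, with medians of 9917 and 8712 UMIs per cell. The summed level of the 11 VSMC markers, among them *Itga8* and *Npnt*, was 3857 and 4680 CPM (UMIs scaled to a total of 1000000 UMIs) in VSMC-like cells, against 152 CPM in T and B cells of either library. Single VSMC markers went both ways in these cells. *Mustn1* was at 444 CPM (Control) and 1363 CPM (AngII+HS) and *Npnt* at 880 and 993 CPM. *Itga8* was at 1467 and 1092 CPM and *Map3k7cl* at 217 and 144 CPM. Markers of other cells also stood higher in VSMC-like cells of the AngII+HS library. The 9 fibroblast markers summed to 1554 CPM (Control) and 3408 CPM (AngII+HS), the 7 endothelial markers to 425 and 876 CPM, and the 6 neutrophil markers to 5.94 and 162 CPM. Their part in the values below was not tested.

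Promoter sequence was at hand for 8 of the 10 genes in RefSeq (build GRCm38.p6). The CArG box, CC and GG with 6 bases of A or T between them, was found in the promoter of *Myl9* alone among these, and in 1.57% of 27025 promoters of the same 300-base length. A looser form, in which at most 1 of the 6 inner bases is other than A or T, was found in *Acta2* and *Myl9*, and in 10.0% of all promoters. The form reads the same on both strands, and every CArG box is also a match of the looser form. Shown are the 250 bases before the start of both genes, the 2 in which a match was found. One encodes the actin of the thin filament and the other a light chain of the motor. Both stood higher in the VSMC-like cells of the AngII+HS library, and the part of the matches in this was not tested. *Tpm2*, *Cnn1* and *Des* also stood higher in those cells, and no match of either form was found in their promoters. The promoters of *Tagln*, with the highest ratio there, and *Myh11*, with the lowest, were not at hand. Capitals mark the matches, which begin 84 and 34 bases before the start in *Acta2* and 161 and 99 bases before it in *Myl9*. The match at 161 bases is the CArG box.
*Acta2* (chr19:34255374-34255623, minus strand): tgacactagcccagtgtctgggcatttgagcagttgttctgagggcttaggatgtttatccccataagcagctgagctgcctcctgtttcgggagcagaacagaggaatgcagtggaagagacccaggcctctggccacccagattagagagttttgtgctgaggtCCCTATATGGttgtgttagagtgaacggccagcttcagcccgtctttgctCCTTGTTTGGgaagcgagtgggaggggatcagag
*Myl9* (chr2:156775214-156775463, plus strand): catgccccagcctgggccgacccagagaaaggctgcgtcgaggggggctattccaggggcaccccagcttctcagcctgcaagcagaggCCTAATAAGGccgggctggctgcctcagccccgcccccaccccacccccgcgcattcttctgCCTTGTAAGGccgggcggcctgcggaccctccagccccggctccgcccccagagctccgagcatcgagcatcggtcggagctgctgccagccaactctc
A match describes the letters of these windows and is not a measured binding site.

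In VSMC-like cells, the actin, tropomyosin, transgelin, calponin and light chain genes stood higher in the AngII+HS library, whereas the genes for the myosin heavy chain and leiomodin stood lower, and those for smoothelin and the light chain kinase were nearly level. The 10 genes together took 3.48% (Control) and 4.72% (AngII+HS) of all UMIs of these cells. Their median log2 ratio, AngII+HS over Control, was 0.25, against −0.0082 over the 15629 genes with at least 20 UMIs. A log2 ratio past 0.5 was reached by 2 of the 10 genes in the higher direction, where the share of all genes was 17.3%, and by 0 of 10 in the lower direction, where it was 21.6%. The plot of levels by cell type shows each gene in both libraries.

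**Figure D1:**
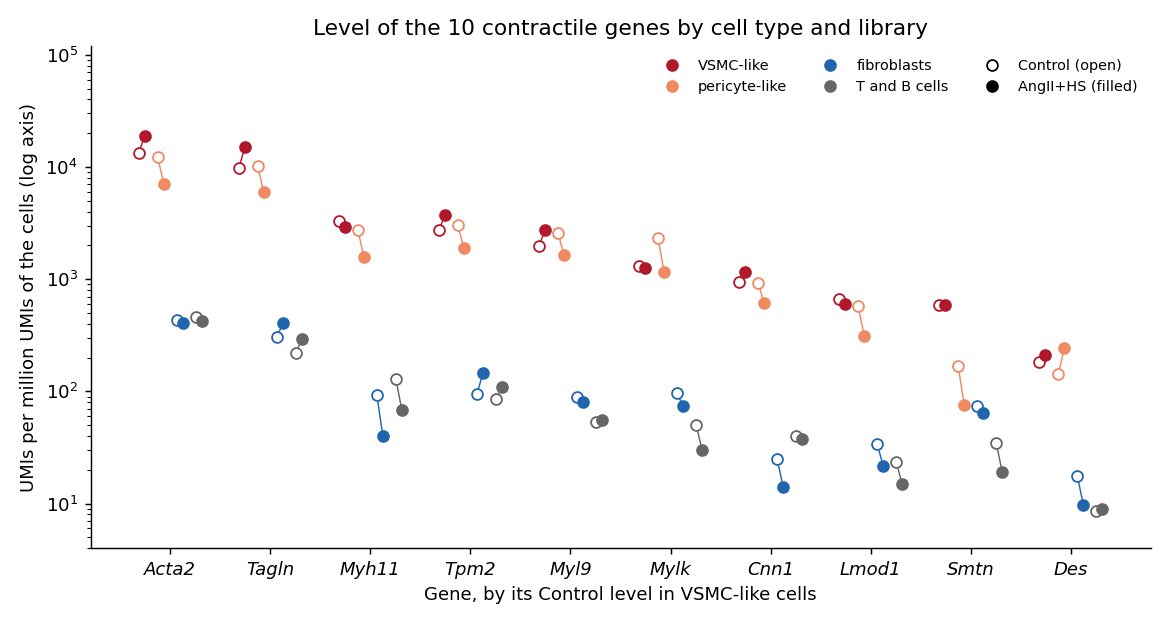
Level of each gene in CPM on a log axis, with open circles for the Control and filled circles for the AngII+HS library, in VSMC-like cells, pericyte-like cells, fibroblasts and T and B cells. *Acta2* and *Tagln* lead in VSMC-like cells, at 13348 and 9720 CPM in the Control library, and every gene is lower in fibroblasts and in T and B cells than in VSMC-like cells.

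*Myh11* (chromosome 16, 14012399 to 14109236, minus strand, GRCm39) encodes the heavy chain of smooth muscle myosin, the motor of the thick filament. It stood at 3318 CPM in the Control and at 2927 CPM in the AngII+HS library, a log2 ratio of −0.18 (−0.20 to −0.16). It was the lowest of the 10 ratios in these cells. Its regulatory light chain gene *Myl9* (chromosome 2, 156617084 to 156623579, plus strand) went from 1986 to 2726 CPM, a log2 ratio of 0.46 (0.43 to 0.48). *Mylk* (chromosome 16, 34565580 to 34822790, plus strand), the gene of the kinase that phosphorylates this light chain, was at 1307 and 1263 CPM, a log2 ratio of −0.05 (−0.08 to −0.01). The parts of the motor thus did not share a direction, with the light chain higher and the heavy chain lower in the treated library.

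On the thin filament, *Acta2* (chromosome 19, 34217737 to 34232990, minus strand), the gene of smooth muscle actin and the most abundant of the 10, stood at 13348 CPM in the Control and 19047 CPM in the AngII+HS library. Its log2 ratio was 0.51 (0.50 to 0.52), just past the threshold of 0.5, and it remained past it in 6 of 15 alternative analyses. *Tpm2* (chromosome 4, 43514697 to 43524949, minus strand), a tropomyosin gene, was at 2720 and 3739 CPM, a log2 ratio of 0.46 (0.44 to 0.48). *Tagln* (chromosome 9, 45840909 to 45847404, minus strand), which encodes the actin-binding protein transgelin, had the highest ratio, with 9720 and 14942 CPM and a log2 ratio of 0.62 (0.61 to 0.63). These were also 3 of the 5 most abundant of the 10 genes in the Control library.

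*Cnn1* (chromosome 9, 22010512 to 22020926, plus strand), the gene of calponin, which restrains the actin-activated myosin ATPase, was at 945 and 1169 CPM, a log2 ratio of 0.31 (0.27 to 0.34). *Lmod1* (chromosome 1, 135252509 to 135295907, plus strand), the gene of a leiomodin that nucleates actin filaments, was at 668 and 605 CPM, a log2 ratio of −0.14 (−0.19 to −0.09). *Smtn* (chromosome 11, 3467520 to 3490612, minus strand), the smoothelin gene, was at 595 and 592 CPM, and its interval of −0.06 to 0.04 holds 0. *Des* (chromosome 1, 75320511 to 75345223, plus strand), which encodes the intermediate filament protein desmin, was the least abundant of the 10, at 183 and 210 CPM, a log2 ratio of 0.20 (0.11 to 0.28). *Acta2*, *Tagln*, *Cnn1* and *Smtn* overlap a protein-coding gene on the other strand (*Stambpl1*, *Pcsk7*, *Elof1* and *Selenom*), and whether counting used the strand is not given in the sources used here.

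These ratios depended on the doublet setting. With no doublet removal the median of the 10 log2 ratios in VSMC-like cells was −0.07, with *Acta2* at 0.27, *Tagln* at 0.37, *Des* at −0.16 and *Myh11* at −0.46. *Acta2*, *Tagln*, *Cnn1*, *Myl9* and *Tpm2* stood higher and *Myh11* and *Lmod1* lower in all 15 alternative analyses, while *Smtn*, *Mylk* and *Des* turned direction in some of them. The order of levels was nearly the same in both libraries, with *Acta2* first and *Tagln* next, and with *Myh11* ahead of *Tpm2* in the Control and behind it in the AngII+HS library.

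**Figure D2:**
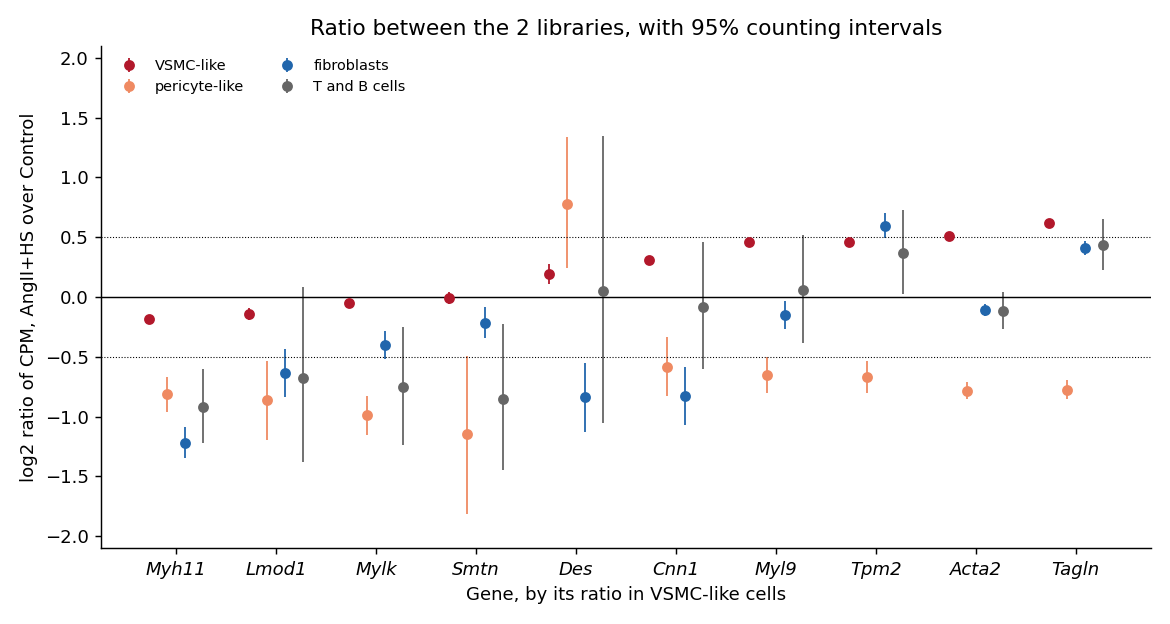
Log2 ratio of CPM, AngII+HS over Control, for each gene in 4 cell groups, with 95% counting intervals and dotted lines at −0.5 and 0.5. In VSMC-like cells the ratios run from −0.18 (*Myh11*) to 0.62 (*Tagln*), in pericyte-like cells every gene but *Des* lies below −0.5, and in fibroblasts and in T and B cells *Myh11* is among the lowest.

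Genes of wide genomic span stood lower in the AngII+HS library as a group, and the 10 genes were spread over that range. Among genes with at least 200 UMIs in VSMC-like cells, the median log2 ratio was 0.16 for the 2095 genes under 10 kb, 0.076 for the 3489 genes of 10 to 30 kb, −0.077 for the 3531 genes of 30 to 100 kb, and −0.19 for the 1695 genes above 100 kb. *Tagln* and *Myl9* span 6.50 kb each. *Lmod1* spans 43.4 kb, *Myh11* 96.8 kb and *Mylk* 257 kb, and these were 3 of the 4 genes with a ratio below 0. The same order of medians was seen in fibroblasts, with 0.084 under 10 kb and −0.30 above 100 kb. The part of gene span in the split between the 10 genes was not tested. *Malat1*, a nuclear RNA, was at 43648 and 44246 CPM in VSMC-like cells. It stood lower in the AngII+HS library in fibroblasts (32918 and 29680 CPM), pericyte-like cells (43913 and 37337 CPM) and T and B cells (22282 and 20263 CPM).

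The split between the genes was also seen within subclusters of VSMC-like cells. Of 7 subclusters with at least 10 cells in each library, *Acta2*, *Tagln*, *Cnn1*, *Myl9* and *Tpm2* stood higher in the AngII+HS library in 6, and *Myh11* and *Lmod1* stood lower in 6. The counting interval lay above 0 in 6 of the 7 for *Acta2*, *Tagln* and *Myl9* and in 5 for *Cnn1* and *Tpm2*. It lay below 0 in 5 for *Myh11* and in only 2 for *Lmod1*, whose ratio in the subcluster led by *Xirp1* was −0.0077. The exception for the higher genes was a subcluster led by *Pln* and *Or51e1* (58 Control and 127 AngII+HS cells), where *Cnn1* was at 500 CPM (Control) and 186 CPM (AngII+HS) and *Smtn* at 548 and 207 CPM. Its share of the VSMC-like cells was 1.13% (Control) and 18.5% (AngII+HS), and it had been part of the cluster in which the pericyte-like cells lay. The exception for *Myh11* and *Lmod1* was a subcluster led by *Igfbp2*, *Mustn1* and *Actg2* (12 and 42 cells). All 10 log2 ratios were above 0 there, and the share of all genes was not computed. The counting interval held 0 for *Myh11* (−0.05 to 0.24), *Lmod1* (−0.23 to 0.46), *Smtn* (−0.02 to 0.69) and *Mylk* (−0.18 to 0.31). *Des* went from 33.5 CPM (6 UMIs) to 294 CPM (141 UMIs), a log2 ratio of 3.13 (1.98 to 4.60). The subcluster that held most Control cells, led by *Xirp1* and *Nav2* (with 35.2% of Control and 13.4% of AngII+HS VSMC-like cells), held 11289 and 17700 CPM of *Acta2*, 8490 and 14397 CPM of *Tagln*, and 2955 and 2468 CPM of *Myh11*. The subclusters were made from the same cells, so they are not replicates of the comparison.

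**Figure D3:**
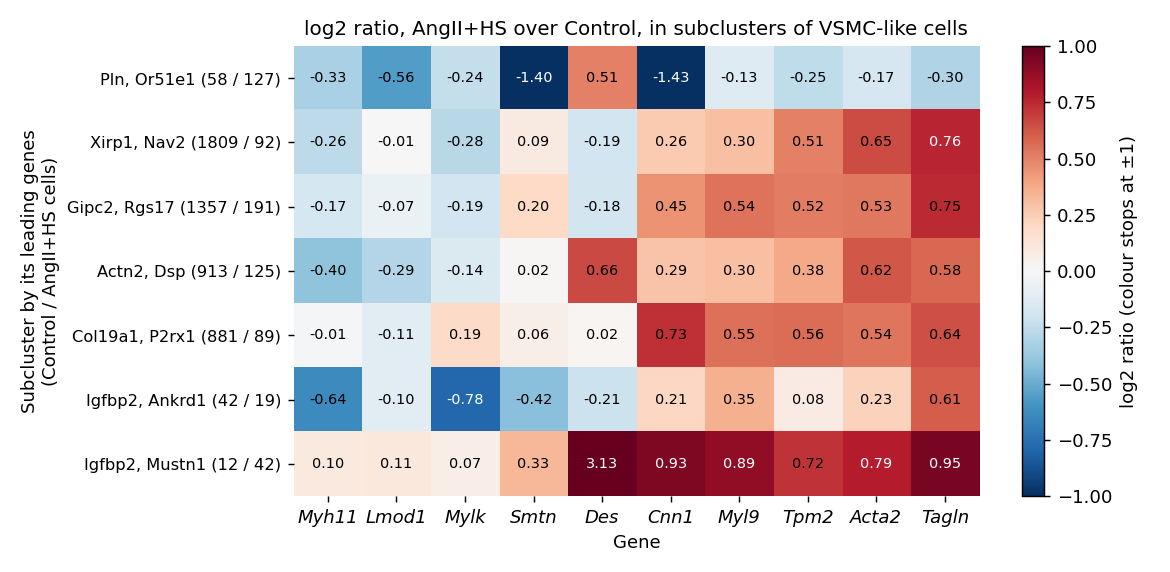
Log2 ratio of each gene, AngII+HS over Control, in the 7 subclusters of VSMC-like cells with at least 10 cells in each library, named by their leading genes, with the cells of each library in brackets. The column of *Tagln* runs from −0.30 in the *Pln*-led subcluster to 0.95 in the subcluster led by *Igfbp2* and *Mustn1*, and the column of *Myh11* from −0.64 to 0.10.

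Single VSMC-like cells differed more from each other in the AngII+HS library. The median cell gave 3.40% of its UMIs to the 10 genes in the Control and 4.49% in the AngII+HS library. The ratio of the 90th to the 10th percentile of this share was 2.17 in Control cells and 3.92 in AngII+HS cells, and 2.43 and 4.21 when each cell was thinned to 1000 UMIs. Cells above 5% made up 8.17% of Control and 40.1% of AngII+HS VSMC-like cells, and cells under 1% made up 0.740% and 3.50%. The named AngII+HS cells thus reached both higher and lower than the named Control cells. Subclusters left unnamed, with 8.25% (Control) and 36.7% (AngII+HS) of the cells of the VSMC clusters, are not in these shares. The largest of them gave 1.24% (Control) and 1.40% (AngII+HS) of its UMIs to the 10 genes. The shares per cell were not computed with the unnamed cells included.

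**Figure D4:**
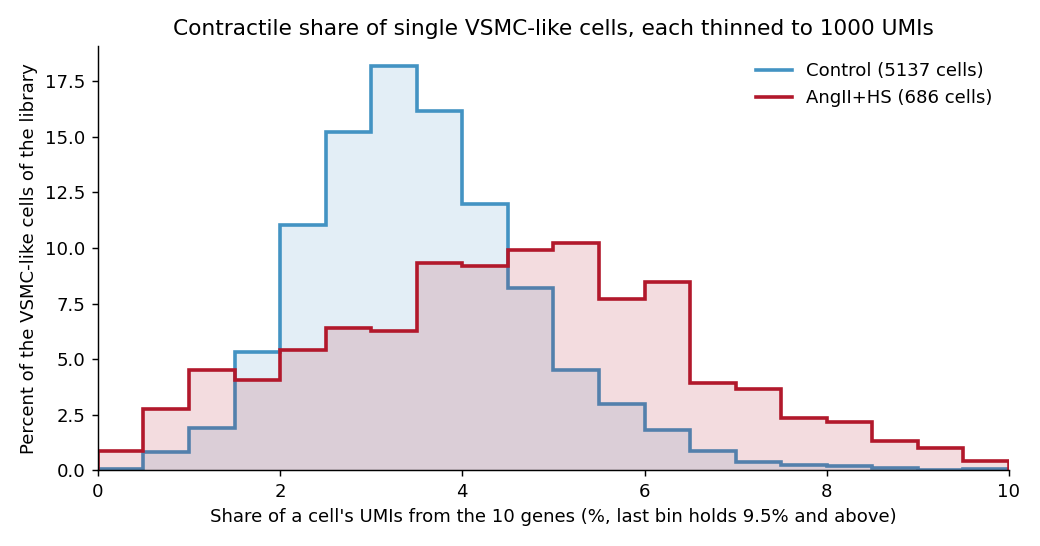
Percent of the VSMC-like cells of each library by the share of their UMIs that came from the 10 genes, in bins of 0.5%, with each cell thinned to 1000 UMIs (5137 Control and 686 AngII+HS cells). The Control cells gather around a median of 3.40%, and the AngII+HS cells spread widely around a median of 4.50%. Cells of subclusters left unnamed are not included.

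Cells high in one of the abundant genes were often high in the others. With each cell thinned to 5000 UMIs (4952 Control and 549 AngII+HS cells, all of 1 library each), the median Pearson correlation over the 45 pairs of genes was 0.14 in the Control and 0.29 in the AngII+HS library. The closest pair in the AngII+HS library was *Acta2* and *Tagln* (0.78), and in the Control library *Acta2* and *Tpm2* (0.63). These values describe cells that share a library and a fixed depth, and counting noise lowers a correlation between genes of low count. *Des* was the gene most often missing, since 68.2% of Control and 65.2% of AngII+HS cells had no *Des* UMI at this depth. Its variance over its mean, the Fano factor, was 3.62 and 3.76, above that of *Cnn1* (1.57 and 2.49). It was below that of *Acta2* (10.6 and 20.4), *Tagln* (6.26 and 13.1) and *Tpm2* (4.32 and 5.86). The means differed widely, with 0.913 and 1.05 UMIs for *Des* and 67.5 and 98.1 UMIs for *Acta2*, so these factors do not rank variability. The standard deviation over the mean was highest for *Des*, at 1.99 and 1.89, against 0.397 and 0.456 for *Acta2*. Counting noise raises this measure where the mean is low.

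Other genes of contraction were read from a fixed list of 30. All 30 had at least 200 UMIs in VSMC-like cells, 20 stood higher and 10 lower in the AngII+HS library, 5 were above 0.5 and 1 below −0.5, and the median log2 ratio was 0.12. Among all 10810 genes with at least 200 UMIs and a known span, 11.8% were above 0.5 and 16.2% below −0.5, and the median was −0.0037. *Sncg*, a synuclein gene, was highest, with 85.8 CPM (Control) and 364 CPM (AngII+HS), a log2 ratio of 2.08 (2.01 to 2.16). *Actg2*, the enteric smooth muscle actin gene, was at 98.7 and 194 CPM, a log2 ratio of 0.97 (0.88 to 1.06), and the small GTPase gene *Rhoa* at 356 and 531 CPM, a log2 ratio of 0.57 (0.52 to 0.63). The lowest was *Synpo2*, an actin-bundling protein gene, at 800 and 565 CPM and a log2 ratio of −0.50 (−0.55 to −0.45). The small heat shock protein gene *Hspb6* was at 75.4 and 54.9 CPM (−0.46), and *Ppp1r12a*, which encodes the targeting subunit of the phosphatase that removes the light chain phosphate, at 972 and 715 CPM (−0.44).

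The cytoskeleton shared with non-muscle cells was read from a list of 16. Of these 16 genes, 13 stood higher and 3 lower in VSMC-like cells of the AngII+HS library, 6 were above 0.5 and 1 below −0.5, and the median log2 ratio was 0.30, beside the same 11.8% and 16.2% of all genes. *Tpm4*, a non-muscle tropomyosin gene, was at 165 and 385 CPM, a log2 ratio of 1.23 (1.16 to 1.29). The actin monomer-binding genes *Pfn1* and *Tmsb4x* were at 751 and 1256 CPM (0.74) and at 13470 and 20346 CPM (0.60). The non-muscle myosin gene *Myh10* was lowest, at 372 and 252 CPM, a log2 ratio of −0.56 (−0.64 to −0.49). *Tpm3* was at 206 and 153 CPM (−0.43) and *Cnn3* at 262 and 213 CPM (−0.30). No difference between the lists was tested.

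Pericytes are the mural cells of small vessels. The pericyte-like cells numbered 39 in the Control and 92 in the AngII+HS library. They were led by *Actc1*, *H2-M9*, *Kcnk3*, *Colec11* and *Lin7a*, and 7 of the 8 pericyte markers were detected. The markers summed to 1155 and 1734 CPM, against 247 and 180 CPM in VSMC-like cells. The 11 VSMC markers were also present, at 2678 CPM (Control) and 1675 CPM (AngII+HS), so that in the Control library they summed higher than the pericyte markers. *Mustn1*, one of them, was at 1592 and 1138 CPM, against 444 and 1363 CPM in VSMC-like cells, while *Pln* was at 0 in both libraries. In these cells 9 of the 10 genes stood below −0.5 on the log2 scale in the AngII+HS library, where the share of all 5731 genes was 20.6%, and 1 stood above 0.5, where it was 23.8%. The median log2 ratio was −0.78, against 0.041 over all these genes. The 10 genes took 3.48% of UMIs in the Control and 2.06% in the AngII+HS library.

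*Acta2* was at 12205 CPM (3350 UMIs) in Control and 7101 CPM (3476 UMIs) in AngII+HS pericyte-like cells, a log2 ratio of −0.78 (−0.85 to −0.71). *Tagln* was at 10136 and 5932 CPM (−0.77), *Myh11* at 2765 and 1573 CPM (−0.81), and *Mylk* at 2321 and 1169 CPM (−0.99). *Des* was the only gene to stand higher, at 142 CPM (39 UMIs) and 243 CPM (119 UMIs), a log2 ratio of 0.77 (0.24 to 1.34). *Smtn* was at 168 CPM (46 UMIs) and 75.6 CPM (37 UMIs), against 595 and 592 CPM in VSMC-like cells, so smoothelin RNA was low in pericyte-like cells of both libraries. Beside these ratios, the summed VSMC markers were lower in the AngII+HS library as well, and the pericyte markers higher. The summed fibroblast markers went from 2259 to 4169 CPM and the neutrophil markers from 0 to 558 CPM in the same cells. The 7 endothelial markers summed to 1428 CPM (Control) and 1832 CPM (AngII+HS), above the 1155 and 1734 CPM of the pericyte markers. Of these endothelial markers, *Cdh5*, *Kdr*, *Egfl7*, *Tie1* and *Vwf* had no UMI in the Control cells. The part of these markers in the ratios was not tested. The median depth was 6669 UMIs (Control) and 4857 UMIs (AngII+HS). With double the number of doublets removed no cells were named pericyte-like, and with a stricter cell filter (39 and 198 cells) the median was −1.27 and *Des* stood at −0.26.

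T and B cells should lack these genes, and their level there is read as free RNA in the droplets. The 10 genes took 0.110% of UMIs in the 229 Control cells and 0.106% in the 2094 AngII+HS cells. *Acta2* was at 458 and 423 CPM, *Tagln* at 219 and 296 CPM, *Tpm2* at 85.1 and 110 CPM, and *Myh11* at 128 and 68.0 CPM. The median log2 ratio of the 10 was −0.11. None stood above 0.5, where the share of 11163 genes was 21.6%, and 4 stood below −0.5 (*Myh11*, *Smtn*, *Mylk* and *Lmod1*), where it was 13.8%.

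Free RNA was more even on the scale of UMIs per cell. *Acta2* gave 1.86 UMIs per T or B cell in the Control and 0.995 in the AngII+HS library. It gave 1.93 and 0.963 UMIs per neutrophil, and 1.85 and 1.06 UMIs per macrophage. These cells differ in depth, from 1266 UMIs for the median AngII+HS neutrophil to 4018 for the median AngII+HS macrophage, and yet held nearly the same number of UMIs within a library. The make-up of the free RNA was set beside that of the VSMC-like cells. *Myh11* made up 9.54% of the 10 genes' UMIs in Control and 6.20% in AngII+HS VSMC-like cells, and 11.6% and 6.39% in T and B cells. *Tagln* made up 27.9% and 31.6% in VSMC-like cells, and 19.9% and 27.8% in T and B cells. The shares of *Acta2* and *Des* went opposite ways, with *Acta2* at 38.4% and 40.3% in VSMC-like cells and 41.6% and 39.8% in T and B cells. *Des* was at 0.526% and 0.444% and at 0.783% and 0.840%. In T and B cells these shares rest on 425 and 2084 UMIs of *Acta2* and on 8 and 44 UMIs of *Des*. No interval was computed for the shares, so these small differences may be counting error. VSMC-like cells were 5138 of 10269 Control and 686 of 19734 AngII+HS cells, a wider gap than that of the free RNA per cell.

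The level in T and B cells depended on doublet removal. The median T or B cell held 4 UMIs of the 10 genes in the Control and 2 in the AngII+HS library, and 0 of 229 and 1 of 2094 cells held more than 20. With no doublet removal, 15 of 254 Control and 25 of 2605 AngII+HS T and B cells held more than 20 UMIs, with 86.7% and 45.7% of the 10 genes' UMIs in these cells. The median log2 ratio was then −2.01.

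**Figure D5:**
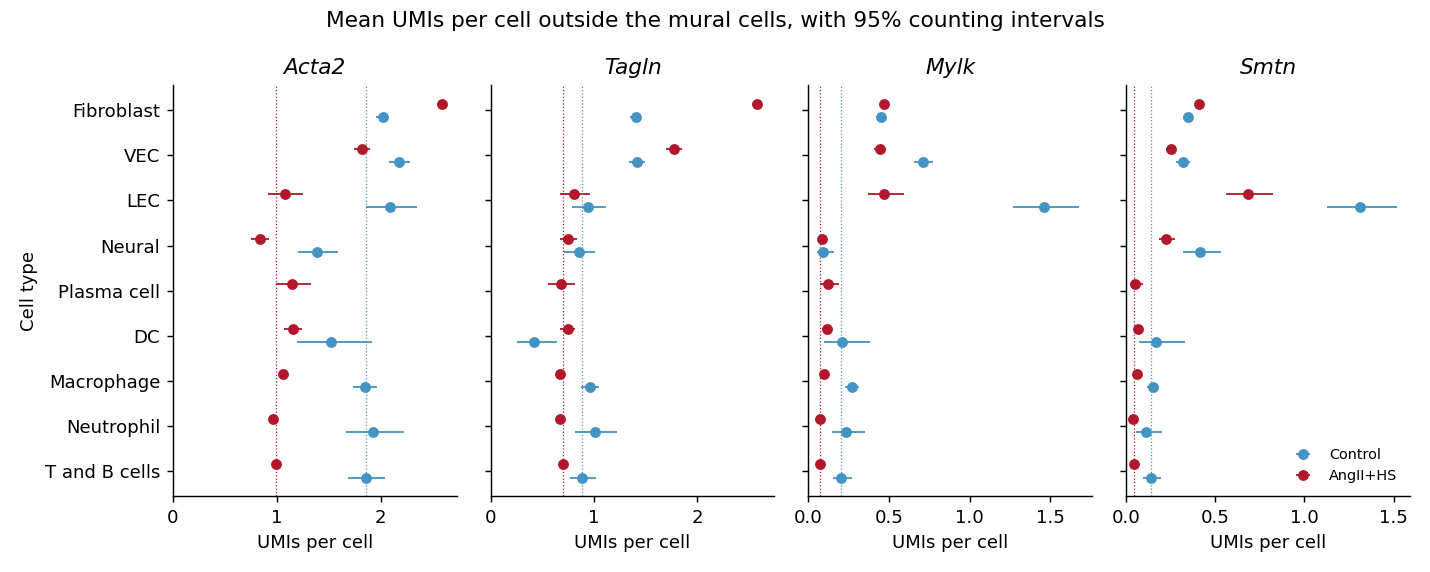
Mean UMIs per cell of *Acta2*, *Tagln*, *Mylk* and *Smtn* in cell types outside the mural cells, with 95% counting intervals (blue Control, red AngII+HS, dotted lines at the level of T and B cells). Neutrophils, macrophages and plasma cells lie near the lines, AngII+HS fibroblasts reach 2.59 UMIs of *Acta2* and 2.58 UMIs of *Tagln*, and *Mylk* and *Smtn* are highest in Control lymphatic endothelial cells (LECs), at 1.46 and 1.31 UMIs.

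Fibroblasts (1965 Control and 4249 AngII+HS cells) held the 10 genes at 0.126% of UMIs in both libraries, close to the share in T and B cells. On the CPM scale the median log2 ratio was −0.31, against −0.16 over all 15806 genes. *Tpm2* alone stood above 0.5, at 95.5 and 144 CPM and a log2 ratio of 0.60 (0.49 to 0.70), where the share of all genes was 14% (2219 of 15806). *Myh11* (92.7 and 39.9 CPM), *Des* (17.6 and 9.81 CPM), *Cnn1* (25 and 14.1 CPM) and *Lmod1* (33.8 and 21.8 CPM) stood below −0.5, where it was 25.1%. Among the 10068 genes with at least 200 UMIs and a known span, 10.2% were above 0.5 and 17.4% below −0.5. *Tagln* was at 303 and 403 CPM, a log2 ratio of 0.41 (0.35 to 0.47), and *Acta2* at 435 and 404 CPM, a log2 ratio of −0.11 (−0.16 to −0.05) that was 0.05 with TMM scaling. Without doublet removal the median of the 10 log2 ratios was −1.32. When the contractile and cytoskeletal genes were used in the clustering, the median was −1.15.

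Set against the free RNA, fibroblasts gave different answers per cell and per total UMIs. *Acta2* was at 2.02 UMIs per Control fibroblast, 1.09 times its level in T and B cells (0.984 to 1.21), and at 2.59 UMIs per AngII+HS fibroblast, 2.60 times that level (2.48 to 2.73). *Tagln* was at 1.41 and 2.58 UMIs, 1.59 and 3.71 times the level in T and B cells. *Smtn* was at 0.345 and 0.410 UMIs, 2.47 and 9.14 times that level, and *Mylk* at 0.450 and 0.470 UMIs, 2.19 and 6.65 times. *Myh11* was at 0.430 and 0.255 UMIs, 0.828 and 1.60 times that level. By CPM, *Acta2* in fibroblasts was at 0.951 (Control) and 0.956 (AngII+HS) times its level in T and B cells, *Tagln* at 1.39 and 1.36 times, and *Myh11* at 0.723 and 0.586 times, while *Smtn* was at 2.16 and 3.36 times and *Mylk* at 1.92 and 2.44 times. The median fibroblast held 4205 and 5445 UMIs, and the median T or B cell 3770 and 2130.5. With the UMIs per cell of T and B cells subtracted, the median log2 ratio over the 8 genes left above the floor of 3 UMIs was 0.44, with *Acta2* at 2.82, *Tpm2* at 2.30 and *Tagln* at 1.39. These values have no interval, and those of *Acta2* and *Tpm2* rest on a small Control remainder. The Control interval of *Acta2* given above holds the level of T and B cells itself. *Tpm2* in Control fibroblasts was at 1.28 times that level (1.02 to 1.64) before subtraction.

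A small number of fibroblasts held much of this RNA. The median fibroblast had 3 UMIs of the 10 genes in the Control and 4 in the AngII+HS library. The limit of 20 UMIs used below is a raw count of these genes. It was not scaled to depth, which had medians of 4205 and 5445 UMIs. Cells with more than 20 UMIs were 60 of the Control fibroblasts (3.05%), with 41.2% of the UMIs of the 10 genes, and 281 of the AngII+HS fibroblasts (6.61%), with 48.1%. Most of the latter, 174 cells, were in a cluster led by *Dio2*, *Fst* and *Hhip* (783 Control and 1092 AngII+HS cells), where 3.96% of Control and 15.9% of AngII+HS cells had more than 20 UMIs. In this cluster *Tagln* was at 338 CPM (Control) and 937 CPM (AngII+HS), *Acta2* at 462 and 751 CPM, and *Tpm2* at 112 and 263 CPM.

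*Cnn1* did not move with them, at 21.2 and 18.1 CPM in the *Dio2*-led cluster. Nor did *Myh11* (96.1 and 82.5 CPM), *Lmod1* (40.7 and 43.1 CPM), *Smtn* (102 and 97.6 CPM) and *Mylk* (155 and 140 CPM). *Des* stood lower, at 27.5 and 10.4 CPM, and *Myl9* higher, at 96.1 and 186 CPM. In the 174 AngII+HS cells of this cluster with more than 20 UMIs, *Cnn1* made up 0.418%, *Myh11* 3.58% and *Tagln* 41.4% of the 10 genes' UMIs, against 2.48%, 6.20% and 31.6% in VSMC-like cells of the same library. The summed fibroblast markers of these 174 cells were at 16280 CPM and the VSMC markers at 1223 CPM, against 25568 and 468 CPM over the whole cluster and 3408 and 4680 CPM in VSMC-like cells. In the 31 Control cells of the cluster with more than 20 UMIs, *Cnn1* made up 1.79%, *Myh11* 7.41% and *Tagln* 34.3%, against 2.72%, 9.54% and 27.9% in Control VSMC-like cells. The cells over the limit were picked by their UMIs of these same 10 genes, so their make-up is a description only. The part of doublets left in the data was not tested. The cluster led by *Ptx3* and *Clec3b* (864 and 1535 cells) went the other way, with *Acta2* at 404 and 205 CPM and *Tagln* at 261 and 152 CPM. Of its AngII+HS cells, 1.30% held more than 20 UMIs. In the cluster led by *Comp* and *Fmod* (317 and 1427 cells), *Acta2* was at 467 and 429 CPM and *Tagln* at 350 and 342 CPM. *Myh11* was at 89.5 and 35.3 CPM there, and 4.63% of its AngII+HS cells held more than 20 UMIs.

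In endothelial cells, the kinase and smoothelin genes stood above the free RNA on both scales. In LECs (138 Control and 157 AngII+HS cells), *Mylk* was at 1.46 UMIs per cell in the Control and 0.471 in the AngII+HS library, 7.13 and 6.67 times the level in T and B cells, and *Smtn* at 1.31 and 0.682 UMIs, 9.39 and 15.2 times. By CPM these were 3.23 and 2.89 times (*Mylk*) and 4.25 and 6.57 times (*Smtn*). In vascular endothelial cells (VECs, 838 and 1203 cells), *Mylk* was at 0.711 and 0.444 UMIs, 3.47 and 6.28 times the level in T and B cells, and *Smtn* at 0.317 and 0.252 UMIs, or by CPM 2.72 and 2.87 times (*Mylk*) and 1.78 and 2.57 times (*Smtn*). *Acta2* in VECs was at 2.18 and 1.82 UMIs, 1.17 and 1.83 times that level per cell, but by CPM it was 0.920 and 0.835 times. *Tagln* in VECs was at 1.42 and 1.78 UMIs, 1.60 and 2.55 times that level per cell and 1.25 and 1.17 times by CPM. VECs with more than 20 UMIs of the 10 genes were 20 cells (2.39%) in the Control and 40 cells (3.33%) in the AngII+HS library, with 24.9% and 25.3% of these UMIs. *Myh11* in VECs was at 0.481 and 0.198 UMIs, 0.925 and 1.24 times that level per cell and 0.726 and 0.566 times by CPM.

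Across 21 profiles of a cell type in a library with at least 50 cells, the genes most like the mean of the 10 were *Ldb3* (Pearson r of log2(CPM + 1), 0.97), *Rgs5* (0.97), *Sh3bgr* (0.95), *Irag1* (0.95), *Dgkb* (0.95), *Fbxl22* (0.95), *Dmpk* (0.95) and *Ppp1r14a* (0.94), among 14442 genes. Profiles of one library share its free RNA and depth. *Ldb3* encodes a protein of actin anchoring sites and *Ppp1r14a* an inhibitor of the light chain phosphatase, and both were also on the list of other contractile genes, as was *Irag1*. *Rgs5*, a regulator of G protein signalling common to mural cells, was at 5324 and 5333 CPM in VSMC-like cells. Of the 10 genes themselves, each a part of that mean, *Acta2* followed it most closely (0.99) and *Smtn* least (0.76). *Smtn* was low in pericyte-like cells and was also found in LECs and neural cells. In neural cells it was at 132 CPM (Control) and 81.5 CPM (AngII+HS), 3.82 and 4.27 times its CPM in T and B cells.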

How the data were processed

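The 2 libraries (10x Genomics 3′ chemistry) were counted by the authors with Cell Ranger (8.0.1 in the file headers) on GRCm39 as the methods state, while the labels name mm10. The deposited values are raw UMI counts per gene for the barcodes that Cell Ranger called as cells, without normalization or doublet removal. Of the 33696 gene IDs, 33185 were found in the GENCODE annotation of GRCm39. The barcode lists were used only to count shared barcodes.

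The cell filter was that of the study (500 UMIs, 200 genes, 20% mitochondrial UMIs). Doublets were scored with Scrublet (scanpy 1.11.5) and removed at 0.8% per 1000 cells, which took 9.03% (Control) and 19.6% (AngII+HS) of the cells. The study used DoubletFinder, which was not run here. Integration and Louvain clustering used Seurat 5.3.0 (R 4.3.3, Matrix 1.6.5, SeuratObject 5.2.0) with 2000 variable genes, 30 components and resolution 0.8, without the 10 genes and the 46 genes of the other lists. Clusters were named from the best-scoring list of fixed markers, with at least 3 of that list detected in 10% of cells. They were left unnamed otherwise, or where their 10 leading genes held more markers of another type or their depth was low. VSMC and VEC clusters were clustered again with 20 components at resolution 0.4. The cluster that held the pericyte-like cells was clustered again after it had been seen, and the rule that lets a tie of markers keep its name was then set.

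For each cell type, the UMIs of its cells in a library were added and scaled to CPM. Ratios are AngII+HS over Control with exact conditional binomial intervals, and levels per cell have exact Poisson intervals. Medians add 0.5 UMIs per gene. No test between conditions was made. The calculation of the ratios was run on simulated counts for the VSMC comparison (15629 genes, 200 of them changed by a fold of 2 up or down). There, 96% of the changed genes had the right direction and 97% of their intervals covered the fold. The counts were drawn with counting error alone, the error that the intervals assume. The simulation therefore cannot speak to differences between mice or libraries, doublets or free RNA. Python 3.11.15, numpy 2.4.6, scipy 1.17.1, pandas 2.3.3, edgeR 4.0.16 with limma 3.58.1 (TMM factors) and matplotlib 3.10.9 were used.

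The 10 genes and the lists were chosen with earlier results of these data known. Named beside the 10 are the 3 highest and 3 lowest genes of each other list with at least 200 UMIs in VSMC-like cells, the 8 genes most like the mean, and leading genes of clusters. *Malat1* and the markers with values fall outside this rule, and the limit of 20 UMIs per cell was set after the values were seen. Alternatives were no or double doublet removal, a stricter cell filter (1000 UMIs, 500 genes, 10% mitochondrial), no integration, resolutions 0.4 and 1.2, clustering with the 10 genes and the other lists, other totals, TMM, cells weighted equally, free RNA subtracted, a marker gate for pericytes (at least 3 markers) and thinning to 1000 UMIs. Counting the unnamed subclusters as VSMC-like, leaving out the cells of the cluster with the pericyte-like cells, and subtraction per cell were chosen after seeing the data.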

Additional observations from a re-analysis of the deposited data

Results flagged for a closer look

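4 pairs of ratios were picked out because a gene stood past 0.5 on the log2 scale in opposite directions in different cell groups. With 1 library per condition, none of these differences was tested. The log2 ratio of *Acta2* was 0.51 in VSMC-like and −0.78 in pericyte-like cells, a difference of 1.29. For *Tagln* the ratios were 0.62 and −0.77, a difference of 1.39. *Tpm2* stood at −0.67 in pericyte-like cells and 0.60 in fibroblasts, a difference of −1.27. *Des* stood at 0.77 in pericyte-like cells and −0.84 in fibroblasts, a difference of 1.61. The pericyte-like values rest on 39 Control and 92 AngII+HS cells, and those of *Des* on 39 and 119 UMIs.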

How the results depend on the processing

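No paired analysis was possible because each condition has 1 library. Of 54 alternative values for the medians in the 4 cell groups and the share per VSMC-like cell, 39 stayed within a range set around the main value. For the medians it ran between the medians of the lower and upper interval ends of the 10 genes. It is not an interval of the median itself and was wide in T and B cells, at −0.83 to 0.27. For the share per cell it came from the spread between cells. In VSMC-like cells the median log2 ratio of 0.25 became −0.068 with no doublet removal and 0.15 with the unnamed subclusters counted as VSMC-like, an alternative chosen after seeing the data. The log2 ratio of the median share per VSMC-like cell, 0.40, became 0.14 with no doublet removal. In pericyte-like cells the median of −0.78 became −0.87 with no doublet removal, −1.27 with the stricter cell filter and −2.70 with a marker gate (306 and 1002 cells), and with double the number of doublets removed no pericyte-like cells were named. *Des* there went from 0.77 to −0.26 with the stricter filter and −1.86 with the gate. The gate took cells of any type with at least 3 pericyte markers, so it is not limited to the pericyte-like cells. Some of these markers were also present in fibroblasts, with *Abcc9* at 288 and 256 CPM and *Steap4* at 209 and 212 CPM. *Higd1b* was nearly absent there, at 0 and 0.147 CPM. The part of other cell types in the gated values was not tested. In fibroblasts the median of −0.31 became −1.32 with no doublet removal, −0.18 with double the number removed, −0.71 with the stricter filter, −1.15 when the contractile and cytoskeletal genes were used in the clustering, −0.15 with TMM (which shifted all ratios by 0.16) and −0.15 with equal weight per cell. It became −0.10 with the CPM of T and B cells subtracted, over the 7 genes left above the floor, and 0.44 with their UMIs per cell subtracted, also chosen after seeing the data, which put *Lmod1* at 0.32. *Tpm2* in fibroblasts turned to −0.74 with no doublet removal and −0.52 with the contractile and cytoskeletal genes in the clustering. In T and B cells the median of −0.11 became −2.01 with no doublet removal. The number of the 10 genes above 0.5 in VSMC-like cells ran from 0 to 3, and the share of all genes was not computed for the alternatives. The cause of these shifts was not tested. Low counts limit *Smtn* in pericyte-like cells (46 and 37 UMIs) and *Des* in T and B cells (8 and 44 UMIs).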

Other observations

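The clusters of VSMC-like cells also held 3 subclusters that were left unnamed. Each scored highest for the erythroid marker list, of which 0, 1 and 1 markers were detected, fewer than the 3 required. The rule counted markers of the best-scoring list only, so their VSMC markers did not enter it. They held 451 Control and 324 AngII+HS cells, and among cells of these clusters they were 8.25% and 36.7%. The largest was led by *Erbb4*, *Fgf14* and *Cacnb2* (282 Control and 307 AngII+HS cells), with medians of 2951 and 2222 UMIs per cell and 11% and 8.16% mitochondrial UMIs. Its cells gave 1.24% (Control) and 1.40% (AngII+HS) of their UMIs to the 10 genes, against 3.48% and 4.72% in VSMC-like cells. Within it *Acta2* was at 4341 and 5458 CPM, *Tagln* at 2300 and 2863 CPM, and *Myh11* at 2509 and 2173 CPM. *Myh11* thus stood below its level in VSMC-like cells of 3318 and 2927 CPM, and *Tagln* stood much further below its level of 9720 and 14942 CPM. These are single libraries with no replicate. A further cluster held the fibroblast markers but was left unnamed for its low depth, with medians of 868 (Control) and 1636 (AngII+HS) UMIs per cell. It held 646 Control and 474 AngII+HS cells and was led by *Igfbp6*, *Cst3* and *Dpep1*. Its cells gave 0.436% and 0.104% of their UMIs to the 10 genes, with *Acta2* at 1798 and 336 CPM and *Tagln* at 1529 and 311 CPM.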
